A study of Sus scrofa with 11 samples.

Results

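The genes described here belong to the gene families that copy DNA and divide cells, measured by RNA sequencing in pig heart slices before and during culture. They were chosen by symbol alone: the A, B, D and E cyclins (CCN), the numbered cyclin-dependent kinases (CDK) and CDC genes, the minichromosome maintenance genes (MCM), the centromere proteins (CENP), the kinesins (KIF), the aurora, BUB and polo-like kinases (AURK, BUB, PLK) and the condensin subunits (NCAP). This gave 106 genes of the 16319 in the table, of which 9686 had a symbol. CCNA2, the D-type cyclins, CDK2, CDK4, CDK6, CDC25C, MCM6, MCM7, AURKA and CENPA found no match by symbol and were not analysed here. The slices came from wild-type Yorkshire pigs aged 3 months. Day 0 had 3 libraries. Slices in the culture that the labels mark "Stim" had 2 libraries after 2 days, 3 after 6 days and 3 after 10 days. The labels name neither the kind of stimulation nor the animal behind a replicate, and all cultured groups share that mark, so time in culture and stimulation cannot be told apart. Limma p-values thus measure only the spread between these samples, which may be technical. Values are FPKM, fragments scaled to gene length and to the fragments mapped in the library, so that levels of different genes can be compared per length.

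A cell that prepares to divide first loads the MCM helicase onto replication origins with the help of CDC6, and cyclin E with its kinase and then CDC7 and CDC45 start DNA synthesis. Later, cyclin B and CDK1 drive the cell into mitosis, condensin compacts the chromosomes, centromere proteins tie them to the spindle, mitotic kinesins move and shape the spindle, and PLK1, AURKB and the BUB proteins time these steps. The anaphase-promoting complex then breaks down cyclin B, and kinesins such as KIF20A and KIF23 act as the cell is cut apart. Heart muscle cells of mammals largely leave the cycle soon after birth, while fibroblasts, endothelial cells, smooth muscle cells and macrophages of the heart can still divide. The families also hold members with other duties, such as kinesins that carry cargo, CDKs that act on RNA polymerase II and the small GTPase CDC42.

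The libraries held 11710088 to 16784719 reads. Day 0 replicate 2 and day 2 replicate 1 stood apart, with 4536 and 4017 genes at 0 against 1310 to 2331 in the other libraries, and with 25 and 18 of the 106 members at 0 against 0 to 2. Called changes that rest on them are given with and without them. As a check of the tissue, 7 heart muscle markers in the table (among them MYH6, TNNT2 and MYL3) summed to 56086 to 80981 FPKM at day 0, to 9712 and 1803 FPKM at day 2, to 9124 to 20636 FPKM at day 6 and to 61.1, 32.6 and 14.4 FPKM at day 10. The day 10 libraries, labelled as heart slices, thus had these defining markers at very low levels, although none of the 7 was at 0 in all of them. In bulk RNA, fewer cells of a type and less RNA per cell cannot be told apart, and this holds for every level below.

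The 106 members had mean levels of 0.0640 FPKM (KIF19) to 311 FPKM (CDC42), with a median of 4.61 FPKM. Of these, 89 reached a mean of 1 FPKM and were tested among 12625 genes with limma on log2(FPKM + 1), with a call at an adjusted p under 0.05. The other 17 were MCM9, CCNE2, CDC20, CDK3, CDC42BPG, CCNB1IP1, CENPE, CENPF, CENPL, KIF14, KIF15, KIF17, KIF18A, KIF19, KIF20B, KIF21A and KIF24. KIF20B lay just under the limit at 0.999 FPKM and CDC14A just over it at 1.06 FPKM. BUB1, BUB1B, CCNB3 and KIF12 passed only through day 10, and KIF1A passed only through day 6, so their direction against those days was set by the filter and no count over the tested members stands as support for a rise. CDK15 passed only through day 0, and CDC14A needed both day 2 and day 6 to pass, so the same limit holds for them. By their known roles, 58 of the 106 members act in replication or division (46 tested), and 48 have other or less settled duties (43 tested).

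**Figure D1:**
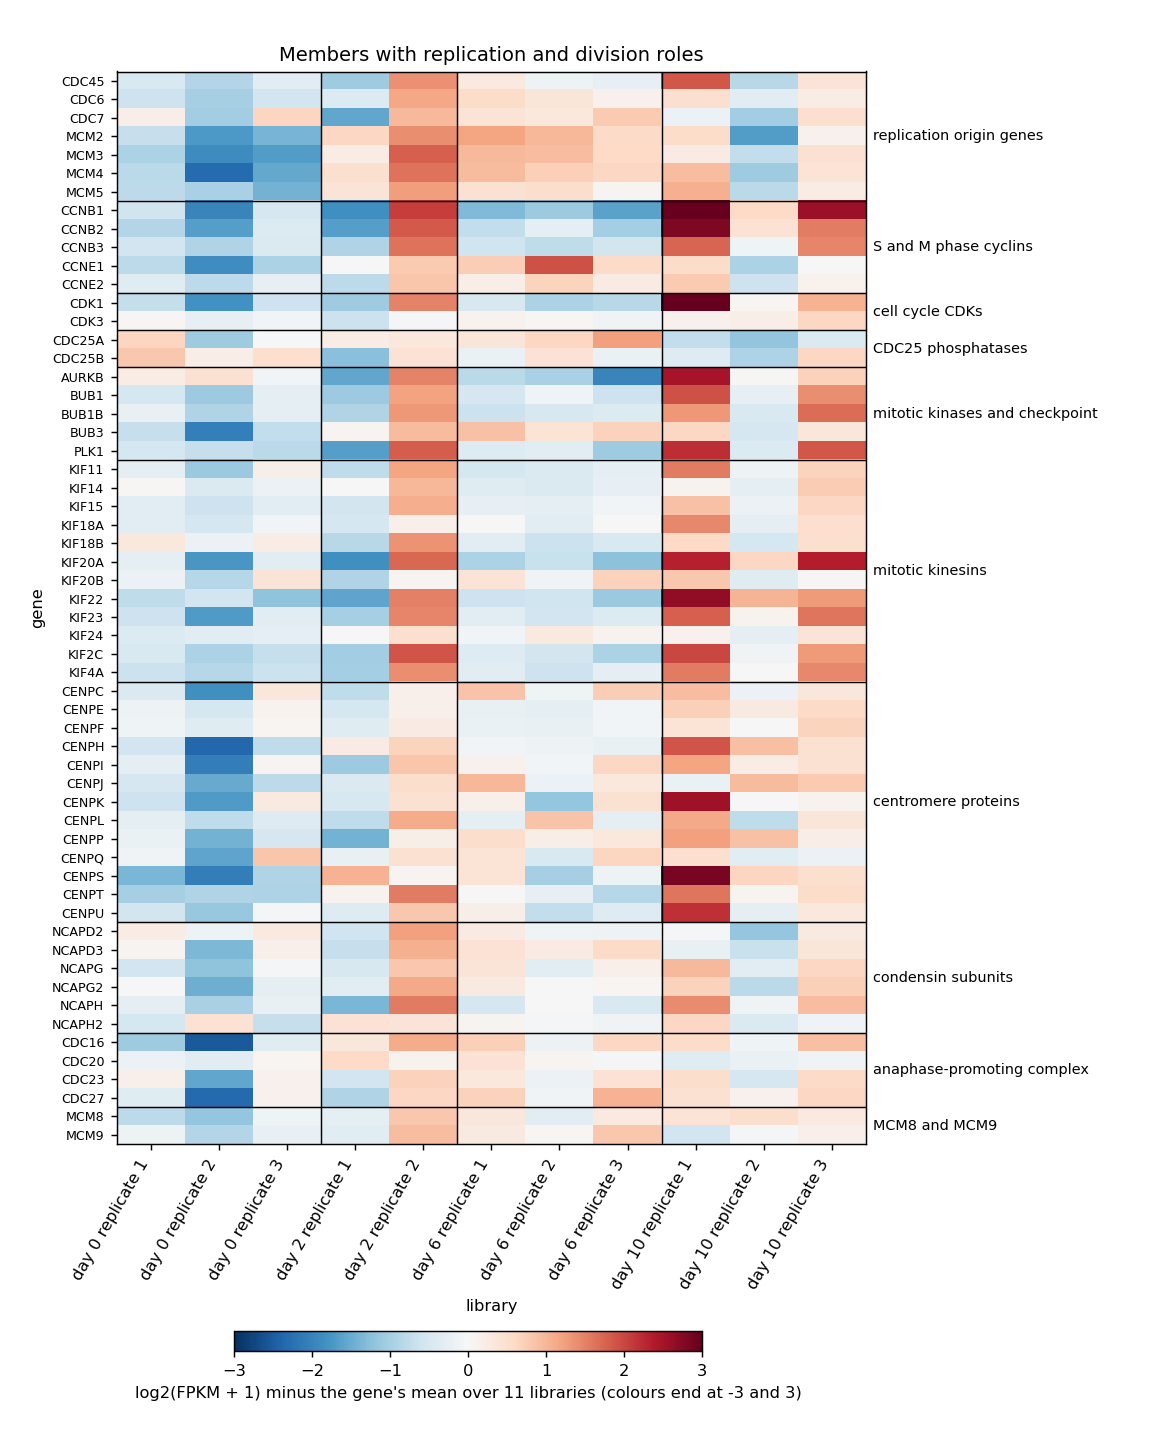
Log2(FPKM + 1) of the 58 replication and division members in the 11 libraries, ordered by role, each gene centred on its own mean over the libraries, with colours that end at -3 and 3. Day 2 replicate 2 and day 10 replicates 1 and 3 stand out as high across the mitotic roles. The MCM genes are high at day 6, where CCNB1, CCNB2 and KIF20A are low. MCM2 to MCM5 are also high in day 2 replicate 2, with a sum of 116 FPKM against at most 77.2 FPKM at day 6.

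Against day 0, the number of members that passed was close to what all genes gave. At day 2, 4 of the 89 tested members rose and 1 fell, with 5.76% of all tested genes called higher, 3.14% lower and 8.9% in either direction. At day 6, 10 rose and 0 fell, against 9.55% and 1.76% of all tested genes and 11.3% in either direction. At day 10, 11 rose and 2 fell, against 11.9% and 6.23%, or 18.2% in either direction. As a group the families were therefore called about as often as any other genes, and the days differed in which members passed. From day 2 to day 6, limma called 0 members in either direction and 0 of all genes, 1 member had an unadjusted p under 0.05, and limma voom on reads also called 0. Between day 10 and day 6, 2 members rose and 1 fell, against 1.91% and 2.99% of all tested genes and 4.9% in either direction.

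The whole table was also shifted between the days, and day 0 replicate 2 stood furthest from the other libraries. The median log2 fold change of all tested genes against day 0 was 0.51 at day 2, 0.88 at day 6 and 0.51 at day 10. It was 0.36 for day 6 over day 2 and -0.43 for day 10 over day 6. Scaling the libraries by median ratio brought it to 0.00, 0.12, 0.07, 0.08 and -0.08. In the same order of comparisons, the members' own medians were 0.76, 0.88, 1.01, 0.08 and -0.13 as deposited, and 0.44, 0.22, 0.66, -0.18 and 0.22 after that scaling, so the members' medians of the last pair of comparisons turned their sign. A fold change is best read against these medians. The shift weighed most on day 6 against day 0, where the split of 10 higher and 0 lower became 1 and 1 with median ratio scaling, or 2 and 3 after quantile normalization. For day 10 against day 6 the split of 2 and 1 became 11 and 2 with quantile normalization.

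The members were also counted without a filter or a test, by whether their libraries overlapped between the days. At day 10, 36 of the 106 members lay above day 0 in every library and 2 below, against 21.9% and 8.60% of the 16073 genes with any reads. Between day 10 and day 6, 20 lay above and 17 below, against 9.32% and 24.5% of all genes. Of those 20 and 17, 17 and 5 were members with a role in replication or division, and 3 and 12 were members with other duties. At day 6, 41 lay above day 0 and 3 below, against 33.7% and 5.95%, and at day 2 29 lay above and 2 below, against 22.7% and 8.75%. Day 6 against day 2 gave 14 above and 4 below, against 15.7% and 5.02%.

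**Figure D2:**
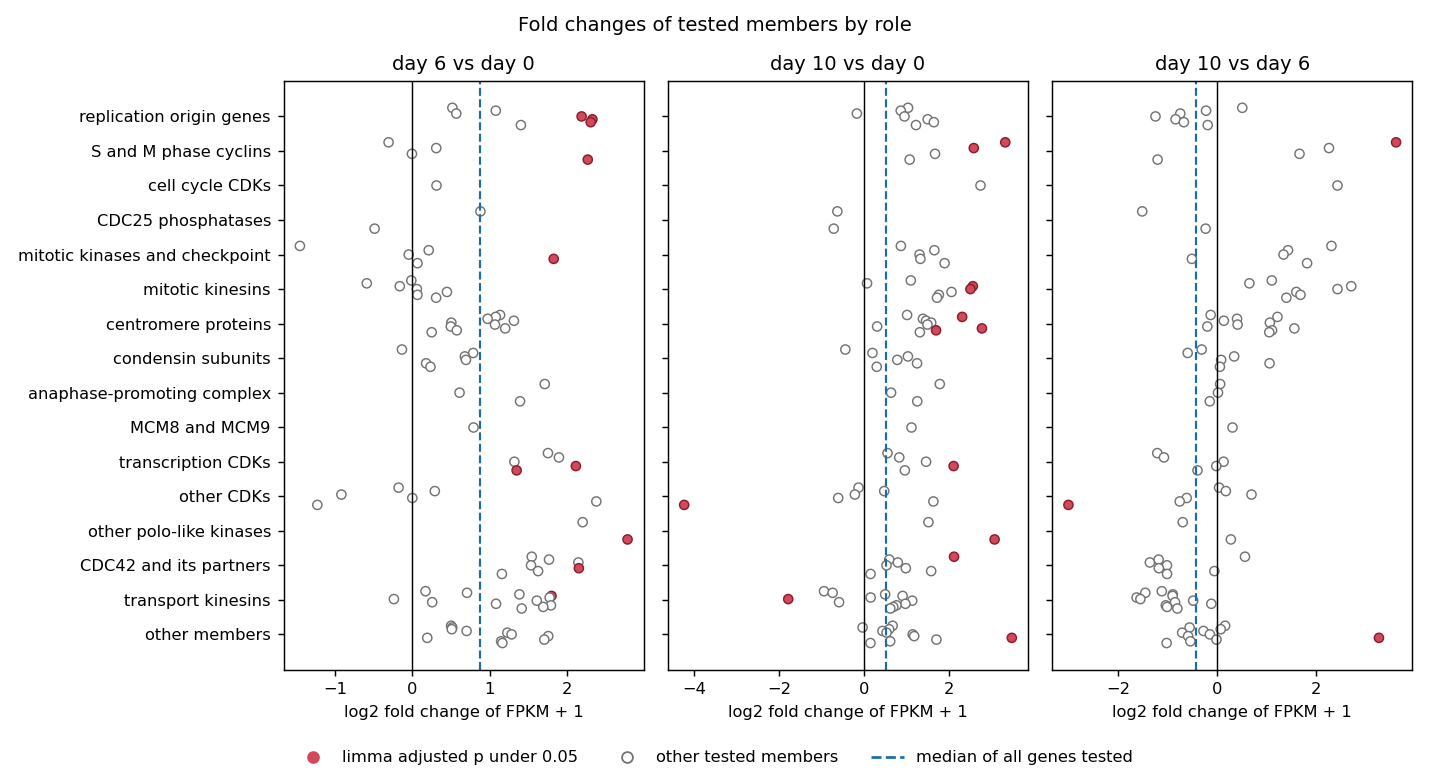
Log2 fold change of FPKM + 1 of each tested member (points) by role, in panels for day 6 against day 0, day 10 against day 0 and day 10 against day 6, with members past a limma adjusted p of 0.05 in red and the median of all tested genes as a dashed line. Origin genes lie mostly right of the dashed line at day 6, and cyclins, mitotic kinesins and mitotic kinases lie mostly right of it at day 10. Among these, CCNB3, BUB1 and BUB1B passed the filter only through day 10, so their direction was set by the filter.

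Of the 7 origin genes, MCM3 and MCM4 rose at day 2, and MCM2, MCM3 and MCM4 at day 6. Of all tested genes, 5.76% and 9.55% were called higher at those days. MCM2, MCM3, MCM4 and MCM5, subunits of the replicative helicase, lay above every day 0 library in both day 2 libraries and all 3 day 6 libraries. Among all genes with any reads, 22.7% lay above day 0 at day 2 and 33.7% at day 6. MCM3 (ENSSSCG00000001701) had 3.71, 1.46 and 1.83 FPKM at day 0, 9.56 and 30.2 FPKM at day 2, 16.8, 16.3 and 12.6 FPKM at day 6, and 9.67, 4.45 and 11.5 FPKM at day 10. Its lowest cultured library, day 10 replicate 2, was still above its highest day 0 library. MCM3 rose at day 2 by 2.5 ± 0.62 on the log2 scale (fold change ± SE, limma adjusted p = 0.0256) and at day 6 by 2.33 ± 0.55 (limma adjusted p = 0.0232). MCM4 had 6.54, 1.67 and 3.56 FPKM at day 0, 17.5 and 39.9 FPKM at day 2, 24.4, 20.7 and 19.3 FPKM at day 6, and 24.3, 5.26 and 16.5 FPKM at day 10. The gene rose at day 2 by 2.61 ± 0.67 (limma adjusted p = 0.0307) and at day 6 by 2.31 ± 0.60 (limma adjusted p = 0.0320). The 3 day 6 libraries lay close together in each case, while the day 2 libraries lay apart from each other and day 10 replicate 2 lay under the other day 10 libraries.

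MCM2 had 7.15, 2.98 and 4.04 FPKM at day 0, 19.3 and 33.5 FPKM at day 2, 29.0, 25.3 and 18.7 FPKM at day 6, and 18.4, 3.14 and 13.5 FPKM at day 10. MCM2 rose at day 6 by 2.19 ± 0.59 (limma adjusted p = 0.0361) and did not pass at day 2, with 2.28 (limma adjusted p = 0.0508). MCM5 did not pass, with 1.87 at day 2 (limma adjusted p = 0.0772) and 1.41 at day 6 (limma adjusted p = 0.1002). CDC6, which loads the helicase, was at 0.0329 to 0.380 FPKM at day 0, at 0.537 and 3.62 FPKM at day 2 and at 1.26 to 2.01 FPKM at day 6, with no overlap with day 0 and no call. CDC45, which joins the helicase as it starts, had 10.0 to 14.9 FPKM at day 6 against 6.13 to 9.43 FPKM at day 0, and CDC7, the kinase that fires origins, overlapped at 2.61 to 4.06 against 0.418 to 3.59 FPKM.

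At day 10 none of the 7 origin genes passed against day 0. The log2 fold changes were 1.49 for MCM3 (limma adjusted p = 0.0783), 1.64 for MCM4 (limma adjusted p = 0.0769) and 0.94 for MCM2 (limma adjusted p = 0.298). MCM2 and MCM3 lay below every day 6 library in all 3 day 10 libraries, where 24.5% of all genes did so. The median log2 fold change of the 7 origin genes for day 10 against day 6 was -0.67, beside -0.43 for all tested genes, and -0.28 with median ratio scaling, so little of it stood apart from the shift of the table.

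The calls of the origin genes rested on few libraries. At day 2, those of MCM3 and MCM4 were lost without day 0 replicate 3 (limma adjusted p = 0.0632 and 0.0638) and without day 2 replicate 2 (0.232 and 0.229), and that of MCM4 also without day 2 replicate 1 (0.0652). At day 6, those of MCM2 and MCM4 were lost without any 1 library other than day 0 replicate 1, with limma adjusted p up to 0.154 and 0.137 without day 6 replicate 1, and that of MCM3 without day 0 replicate 3 or any day 6 library, up to 0.115 without day 6 replicate 1. Median ratio scaling left all 3 unpassed at day 6, with limma adjusted p of 0.219, 0.0869 and 0.126 for MCM2, MCM3 and MCM4, but kept MCM3 and MCM4 past the threshold at day 2 with 0.0395 and 0.0476.

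Cyclin E1, which with its kinase starts S phase, went with the MCM genes rather than with the B cyclins. CCNE1 had 2.04, 0.45 and 1.73 FPKM at day 0, 4.24 and 8.12 FPKM at day 2, 7.78, 18.7 and 6.82 FPKM at day 6, and 6.72, 1.73 and 4.24 FPKM at day 10. Every day 2 and day 6 library lay above day 0, and every day 10 library lay below day 6. CCNE1 rose at day 6 by 2.27 ± 0.58 (limma adjusted p = 0.0308). It did not pass at day 2, with 1.59 (limma adjusted p = 0.145), or between day 10 and day 6, with -1.21 (limma adjusted p = 0.270). Its call at day 6 was lost without any 1 library other than day 0 replicate 1 (limma adjusted p up to 0.109, without day 6 replicate 1) and with median ratio scaling (0.0929). CCNE2, under the filter, had 1.01 to 1.77 FPKM at day 6 against 0 to 0.457 FPKM at day 0. CDC25A, a phosphatase that frees CDKs for S phase and mitosis, was at 1.88, 1.11 and 2.55 FPKM at day 10 against 5.17, 6.35 and 10.1 FPKM at day 6, which did not pass in all libraries (-1.52, limma adjusted p = 0.132). CDC25B, the phosphatase that acts at the entry into mitosis, overlapped between all days, with 2.57 to 13.8 FPKM.

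The B cyclins and CDK1, which form the kinase that starts mitosis, had another time course. CCNB1 (ENSSSCG00000016941) had 2.42, 0.296 and 2.62 FPKM at day 0, 0.432 and 20.8 FPKM at day 2, 1.06, 1.42 and 0.694 FPKM at day 6, and 65.8, 6.75 and 29.7 FPKM at day 10. These levels rested on 24 to 38 reads per library at day 6 and on 169 to 2053 reads at day 10. All day 10 libraries lay above all day 0 and day 6 libraries, and the day 2 libraries lay on either side of day 0. CCNB1 rose at day 10 by 3.32 ± 0.95 against day 0 (limma adjusted p = 0.0299) and by 3.62 ± 0.95 against day 6 (limma adjusted p = 0.0468). With the replicate number as a block, the change against day 6 no longer passed (limma adjusted p = 0.0775), nor did it without the filter. Both calls of CCNB1 were lost with a pseudocount of 0.1 and with limma voom on reads. The call against day 0 was also lost without day 0 replicate 2 (0.0583), day 10 replicate 1 (0.118) or day 10 replicate 3 (0.0945), and that against day 6 without any 1 library other than day 10 replicate 2 (up to 0.199, without day 10 replicate 1).

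CCNB2 had 0.724, 0 and 1.38 FPKM at day 0, 0 and 10.2 FPKM at day 2, 0.900, 1.61 and 0.571 FPKM at day 6, and 21.1, 3.30 and 8.15 FPKM at day 10. The values of 0 allow up to 0.199 FPKM in day 0 replicate 2 and 0.155 FPKM in day 2 replicate 1, the level of 3 reads, which covers counting error only. CCNB2 rose at day 10 against day 0 by 2.58 ± 0.82 (limma adjusted p = 0.0450), a call lost without any 1 library other than day 10 replicate 2 (up to 0.160, without day 10 replicate 1). That call was also lost with a pseudocount of 0.1, without the filter, with a replicate block and with limma voom on reads. CDK1 had 2.61, 0.689 and 2.84 FPKM at day 0, 1.85 and 15.6 FPKM at day 2, 3.25, 2.09 and 2.35 FPKM at day 6, and 88.8, 5.20 and 11.3 FPKM at day 10. Its day 10 libraries lay above all day 0 and day 6 libraries but were spread too widely to pass, with 2.73 against day 0 (limma adjusted p = 0.0524) and 2.43 against day 6 (limma adjusted p = 0.154). CCNB3, a cyclin best known from meiosis in mice, had 5.26, 0.698 and 4.13 FPKM at day 10 against 0.0893 to 0.276 FPKM at day 6, with no overlap and no call.

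The kinases of mitosis shared with the B cyclins a high day 2 replicate 2 and a high day 10 replicate 1. PLK1, which acts from the entry into mitosis to its end, had 1.5, 1.23 and 1.05 FPKM at day 0, 0.147 and 11.6 FPKM at day 2, 1.74, 1.82 and 0.7 FPKM at day 6, and 15.6, 1.68 and 12.1 FPKM at day 10. AURKB, which corrects faulty attachments of chromosomes to the spindle, had 28.5, 4.5 and 7.66 FPKM at day 10 against 2.04, 1.74 and 0.362 FPKM at day 6. The AURKB libraries of those days did not overlap, and its day 6 libraries also lay below the 4.08 to 6.36 FPKM of day 0. Neither passed against day 6, with 1.82 for PLK1 (limma adjusted p = 0.247) and 2.32 for AURKB (limma adjusted p = 0.121), and PLK1 in day 10 replicate 2 lay within its day 6 range. The checkpoint kinases BUB1 and BUB1B reached 6.98 and 4.90 FPKM in their highest day 10 libraries and stayed under 1 FPKM at day 0 and day 6. The day 10 libraries of both genes overlapped with day 6, and those of BUB1B also with day 0. Both genes passed the filter only through day 10. BUB3, a checkpoint protein with duties outside mitosis too, was far more abundant and moved differently, with 18.0, 6.44 and 17.4 FPKM at day 0, 31.8 and 58.8 FPKM at day 2, 55.7, 39.97 and 49.2 FPKM at day 6 and 46.4, 20.9 and 37.8 FPKM at day 10. BUB3 rose at day 6 by 1.83 ± 0.50 (limma adjusted p = 0.0375), a call lost without any 1 library other than day 0 replicate 1 (up to 0.158, without day 6 replicate 1) and with median ratio scaling (0.295).

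**Figure D3:**
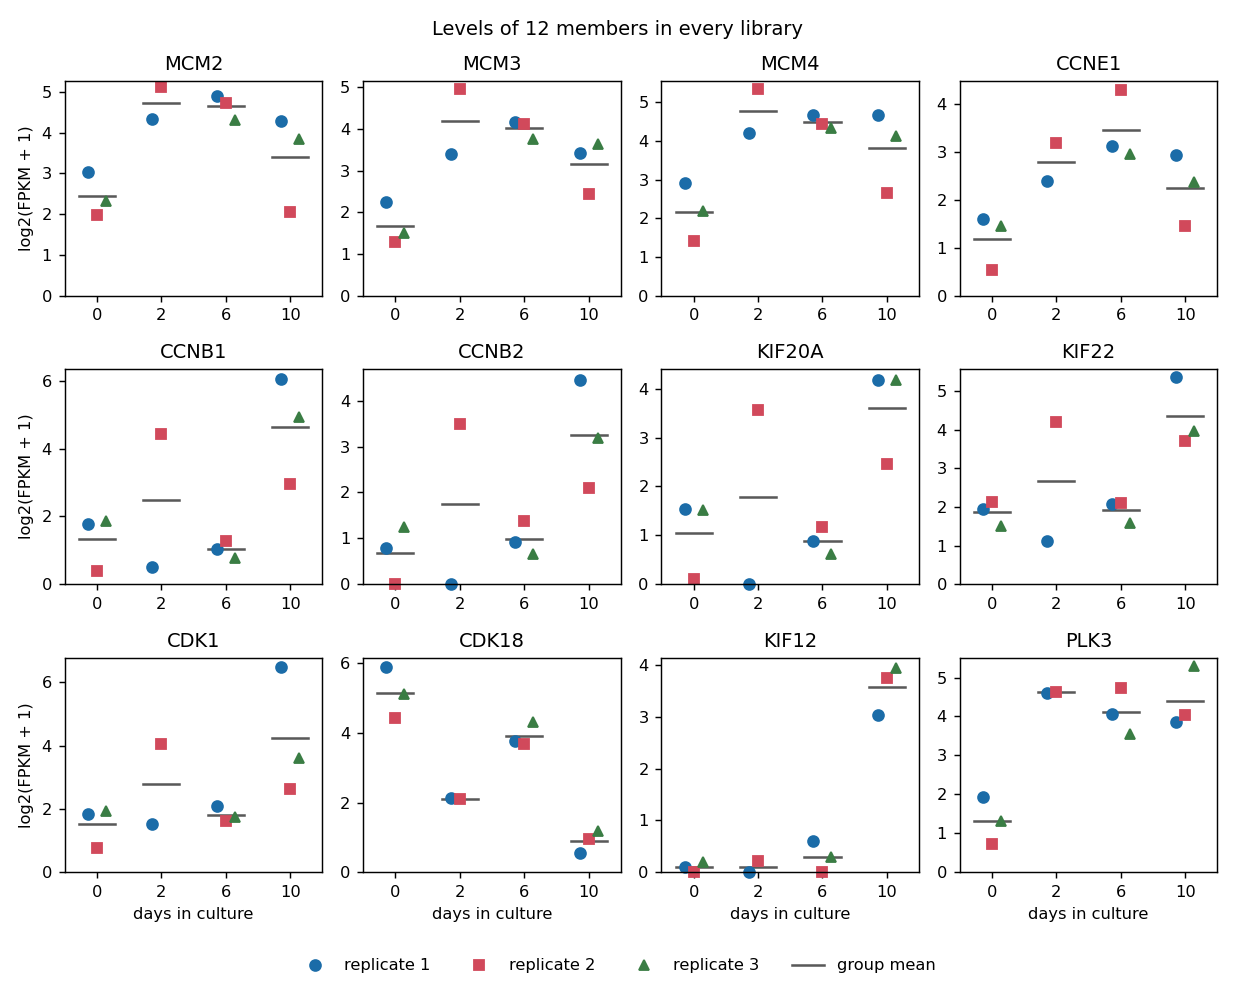
Log2(FPKM + 1) of 12 members in each library (a marker shape per replicate) after 0, 2, 6 and 10 days, with a bar at the mean of each day. MCM3, MCM4 and CCNE1 are high at day 6, and MCM3 and MCM4 are highest in day 2 replicate 2. CCNB1 and KIF20A are high in all day 10 libraries and in day 2 replicate 2, CDK18 is lowest at day 10, and KIF12 is near 0 before day 10.

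Among the kinesins of the spindle and of cell separation, KIF20A and KIF22 passed at day 10. KIF20A, needed for the final cut between daughter cells, had 1.92, 0.0731 and 1.85 FPKM at day 0, 0 and 10.9 FPKM at day 2, 0.843, 1.26 and 0.532 FPKM at day 6, and 17.1, 4.49 and 17.2 FPKM at day 10. KIF22, which pushes chromosomes toward the middle of the spindle, had 2.85, 3.37 and 1.83 FPKM at day 0, 1.18 and 17.5 FPKM at day 2, 3.21, 3.28 and 1.99 FPKM at day 6, and 40.2, 12.2 and 14.8 FPKM at day 10. In both genes, no day 10 library overlapped with day 0 or day 6. KIF20A rose at day 10 against day 0 by 2.55 ± 0.82 (limma adjusted p = 0.0471) and KIF22 by 2.5 ± 0.72 (limma adjusted p = 0.0308). Both calls were lost without 5 of the 6 libraries of these days, taken 1 at a time (up to 0.151 for KIF20A without day 10 replicate 3, and up to 0.12 for KIF22 without day 10 replicate 1). The exception was day 10 replicate 2 for KIF20A and day 0 replicate 2 for KIF22. Median ratio scaling also ended the call of KIF22 (0.101), as did quantile normalization, a pseudocount of 0.1 and limma voom on reads. The call of KIF20A was lost in 6 of 10 alternatives, among them a pseudocount of 0.1, no filter, a replicate block and limma voom. KIF20A overlaps CDC23, itself a member, by 1811 bases in the RefSeq annotation of Sscrofa11.1, and the sources used here do not say whether counting used strand, so their reads may not be told apart. MCM4, CDK1, PLK3 and KIF1C likewise overlap a lncRNA, a pseudogene or a protein-coding gene there. CDC23 was steadier, with 7.22, 3.04 and 7.5 FPKM at day 10 against 6.06, 4.05 and 6.65 FPKM at day 6.

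Of the 12 mitotic kinesins, KIF11, KIF20A, KIF22, KIF23, KIF2C and KIF4A lay above every day 6 library in all day 10 libraries, where 9.32% of all genes did so. KIF23, which bundles the midzone of the spindle, had 10.2, 2.45 and 8.78 FPKM at day 10 against 1.58, 1.16 and 1.42 FPKM at day 6 (1.60, limma adjusted p = 0.208). KIF11, which pushes the spindle poles apart, had 5.96, 1.14 and 2.77 FPKM at day 10 against 0.662 to 0.934 FPKM at day 6. KIF2C, which trims spindle fibres at centromeres, had 9.5, 1.42 and 5.31 FPKM at day 10 against 0.355 to 0.99 FPKM at day 6. The median log2 fold change of the 7 tested mitotic kinesins for day 10 against day 6 was 1.60 as deposited, 1.80 with median ratio scaling and 2.00 after quantile normalization, beside -0.43, -0.08 and -0.03 for all tested genes. For day 6 against day 0 their median was 0.06 as deposited and -0.38 and -0.74 with those scalings, so the sign at day 6 was set by the scaling.

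Of the 13 centromere proteins, 10 were tested, and CENPH, CENPS and CENPT rose at day 10 against day 0 and 0 fell, where 11.9% of all tested genes were called higher. CENPH, part of the inner kinetochore, had 3.52, 0.318 and 2.94 FPKM at day 0, 6.92 and 9.73 FPKM at day 2, 5.31, 5.08 and 4.77 FPKM at day 6, and 23.7, 11.5 and 8.15 FPKM at day 10, and rose by 2.30 ± 0.58 at day 10 against day 0 (limma adjusted p = 0.0159). CENPS, which also acts in DNA repair, had 1.55, 0.570 and 2.56 FPKM at day 0, 12.6 and 6.06 FPKM at day 2, 7.80, 2.31 and 4.97 FPKM at day 6, and 46.4, 9.33 and 8.19 FPKM at day 10 (2.77 ± 0.68, limma adjusted p = 0.0146). CENPT, a link from centromere DNA to the outer kinetochore, had 8.17, 2.16 and 3.40 FPKM at day 10 against 0.502, 0.596 and 0.589 FPKM at day 0 (1.69 ± 0.54, limma adjusted p = 0.0453). In each of these genes the highest library was day 10 replicate 1. Without it, CENPH and CENPS no longer passed (limma adjusted p = 0.0700 and 0.0587). The call of CENPT was lost without any 1 library other than day 10 replicate 2 (up to 0.156, without day 10 replicate 1) and with median ratio scaling (0.106). CENPT and CENPH also overlap other annotated genes, a protein-coding gene and a lncRNA with a pseudogene. CENPE and CENPF, large proteins made late in the cycle, stayed under the filter but lay above every day 6 library at day 10, with 1.36, 0.745 and 1.13 FPKM for CENPE and 0.721, 0.292 and 1.04 FPKM for CENPF, against at most 0.360 and 0.219 FPKM at day 6.

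None of the 6 condensin subunits passed in any comparison. NCAPH, a subunit of condensin I, had 8.48, 2.32 and 5.73 FPKM at day 10 against 1.95, 0.797 and 2.03 FPKM at day 0, with no overlap. NCAPG, another, overlapped at 4.16, 1.11 and 3.03 FPKM at day 10 against 0.772, 0.142 and 1.57 FPKM at day 0, and NCAPD2 at 4.10, 1.38 and 5.42 FPKM at day 10 against 5.27, 3.81 and 5.56 FPKM at day 0. None of the 3 tested genes of the anaphase-promoting complex passed either. CDC20, the activator of that complex, which usually peaks with cyclin B, was low at every day, with at most 1.01 FPKM (day 2 replicate 1) and 0.0383, 0.159 and 0.229 FPKM at day 10. Both day 2 libraries of CDC20 lay above day 0, as in 22.7% of all genes. Its day 10 libraries lay below every day 6 library, as in 24.5% of all genes, whereas those of the B cyclins lay above.

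Since the MCM genes and the mitotic genes followed different courses, the 2 sets were also put side by side within each library, where the scaling of the library cancels. The genes of this ratio were chosen after their values had been seen, so it is a description with no test. The summed FPKM of MCM2 to MCM5, divided by the summed FPKM of CCNB1, CCNB2, CDK1 and PLK1, was 2.72, 3.64 and 1.34 in the libraries of day 0. It was 21.8 and 2.00 in those of day 2, then 11.1, 10.0 and 12.9 in those of day 6, and lastly 0.332, 0.896 and 0.771 in those of day 10. The MCM sum thus exceeded the mitotic sum in all 3 day 6 libraries by a like factor and was below it in all 3 day 10 libraries, with no overlap of the ratio between those days or with day 0. The MCM sums themselves overlapped, at 55.7 to 77.2 FPKM at day 6 and 15.2 to 63.5 FPKM at day 10. The mitotic sums did not, at 4.31 to 6.95 FPKM at day 6 and 16.9 to 191 FPKM at day 10. The day 2 libraries gave 21.8 and 2.00 and so did not share a ratio. The MCM sums rested on 300 to 4720 reads and the mitotic sums on 45 to 4442 reads, the fewest in day 0 replicate 2.

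**Figure D4:**
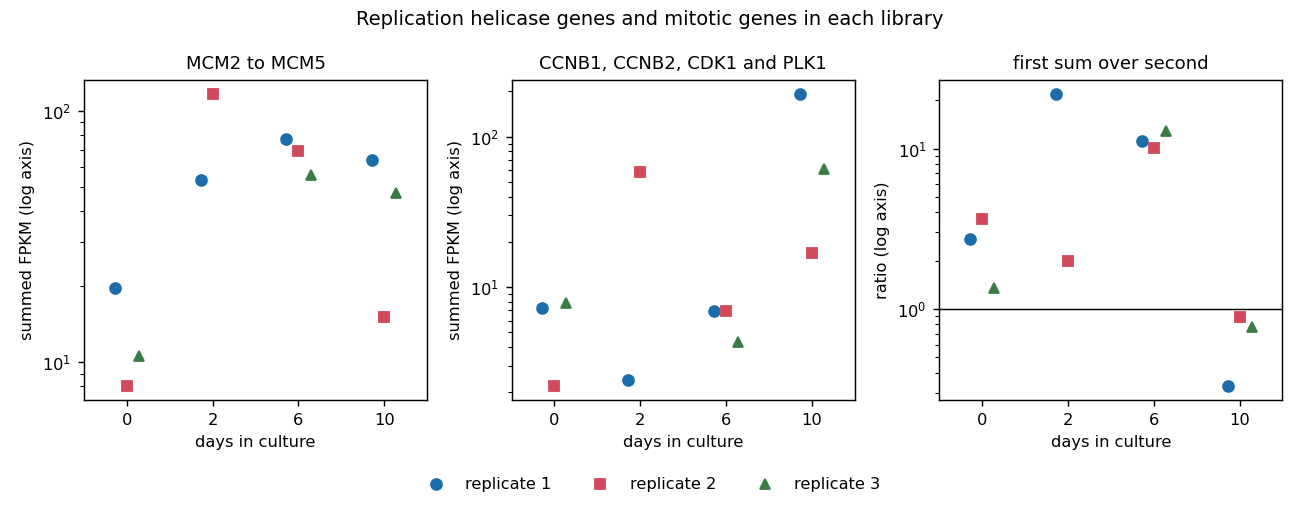
Summed FPKM of MCM2 to MCM5 and of CCNB1, CCNB2, CDK1 and PLK1 in each library, and their ratio, on log axes, by day. The ratio lies at 10.0 to 12.9 in the day 6 libraries and at 0.332 to 0.896 in the day 10 libraries.

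Libraries of the same day differed in a shared way across these genes. At day 10, replicate 1 was highest of the 3 in 5 of 5 S and M phase cyclins, 9 of 12 mitotic kinesins, 11 of 13 centromere proteins and 5 of 7 origin genes, and replicate 2 was lowest in 5 of 5 cyclins, 12 of 12 mitotic kinesins, 5 of 5 mitotic kinases and checkpoint genes and 7 of 7 origin genes. At day 2, replicate 2 was above replicate 1 in 12 of 12 mitotic kinesins, 5 of 5 cyclins and 7 of 7 origin genes, and replicate 1 is the library with 18 members at 0. The day 2 order was not particular to division genes, with 11 of 14 transport kinesins and 7 of 8 genes of CDC42 and its partners. The median of all genes was 2.42 FPKM in day 2 replicate 1 and 5.96 FPKM in replicate 2. How many of all genes had the orders of day 2 and day 10 was not counted. Summed markers of other cell types differed among the day 10 libraries too. Over replicates 1, 2 and 3, the 6 fibroblast markers summed to 1737, 3973 and 8267 FPKM, the 6 endothelial markers to 266, 967 and 833 FPKM, the 6 smooth muscle and pericyte markers to 2284, 2709 and 3140 FPKM, and the 7 macrophage and monocyte markers to 699, 193 and 29.5 FPKM. Most of the fibroblast sums was COL3A1 (961, 2656 and 5604 FPKM), and most of the endothelial sums was PECAM1 (228, 838 and 706 FPKM). Their part in the levels of the division genes was not tested.

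Without both libraries that stood apart, more genes passed at day 10, members and other genes alike. The number of members called was then 21 against day 0 (17 higher and 4 lower), where 27% of all tested genes were called, and 14.6% called higher. Against day 6 it was 17 (12 higher and 5 lower), where 20% of all tested genes were called, and 6.23% called higher. These counts take in members with other duties. For day 10 against day 6 this set took in KIF20A (limma adjusted p = 0.00186), KIF22 (0.00286), CCNB2 (0.0104), AURKB (0.0134), KIF23 (0.0263), CDK1 (0.0340) and PLK1 (0.0440), all higher, and CDC25A (0.0193), lower. Neither of the libraries left out belongs to day 6 or day 10, so the fold changes of that comparison stayed the same and the spread they are tested against did not. At day 2 and day 6 against day 0, 12 members each were then called, 10 higher and 2 lower, with MCM5 newly among those higher at day 2 and CDK18 among those lower at day 6, where 10.9% and 15.7% of all tested genes were called. CDK9 was the only call at day 6 that ended (limma adjusted p = 0.0539).

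The calls that no single left-out library ended, those of CDK18, KIF12, CDC42 and PLK3 (at day 2 and day 10), were all of members with other duties. CDK18 (ENSSSCG00000015651), a kinase of the PCTAIRE group that does not drive the cycle, had 58.6, 20.7 and 33.9 FPKM at day 0, 3.37 and 3.27 FPKM at day 2, 12.7, 11.8 and 18.8 FPKM at day 6, and 0.481, 0.960 and 1.29 FPKM at day 10. No library of a cultured day overlapped with day 0, and day 6 lay between day 2 and day 0. It fell at day 2 by 3.04 ± 0.56 on the log2 scale (limma adjusted p = 0.00644) and at day 10 by 4.24 ± 0.50 (limma adjusted p = 1.01e-04), and at day 10 against day 6 it fell by 3.01 ± 0.50 (limma adjusted p = 0.00384). At day 6 against day 0 it did not pass (-1.23, limma adjusted p = 0.107). None of the 3 calls was lost when 1 library was left out.

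KIF12 (ENSSSCG00000005494), a kinesin known from kidney and liver epithelium, was all but absent until day 10. It had 2, 0 and 5 reads at day 0, 0 and 4 reads at day 2, 17, 0 and 7 reads at day 6, and 207, 284 and 459 reads at day 10, which gave 7.23, 12.4 and 14.4 FPKM at day 10 against at most 0.516 FPKM in any earlier library. It rose at day 10 by 3.47 ± 0.40 against day 0 (limma adjusted p = 9.09e-05) and by 3.28 ± 0.40 against day 6 (limma adjusted p = 4.23e-04), and both calls held without any 1 library. Since KIF12 passed the filter only through day 10, it could be called in one direction alone.

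PLK3 and PLK2 are polo-like kinases that answer to stress and growth signals, and PLK3 lay above day 0 in every cultured library. PLK3 had 2.85, 0.646 and 1.49 FPKM at day 0, 23.4 and 23.8 FPKM at day 2, 15.7, 25.6 and 10.7 FPKM at day 6, and 13.5, 15.4 and 38.0 FPKM at day 10. PLK3 rose at day 2 by 3.29 ± 0.61 (limma adjusted p = 0.00685), at day 6 by 2.79 ± 0.55 (limma adjusted p = 0.0120) and at day 10 by 3.07 ± 0.55 (limma adjusted p = 0.00202), and the call at day 6 was lost without day 6 replicate 1 (0.0707). PLK2 had 44.9 and 112 FPKM at day 2 and 76.8, 124 and 36.1 FPKM at day 6, against 39.4, 2.39 and 25.8 FPKM at day 0, and did not pass (2.23 with limma adjusted p = 0.146 at day 2, and 2.21 with limma adjusted p = 0.0885 at day 6). A day 6 library of PLK2 lay within the range of day 0.

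CDC42, a GTPase that shapes the actin skeleton, was the most abundant member, with 159, 49.4 and 156 FPKM at day 0, 246 and 438 FPKM at day 2, 329, 305 and 313 FPKM at day 6, and 570, 473 and 378 FPKM at day 10. It rose at day 10 by 2.11 ± 0.50 (limma adjusted p = 0.0110), and that call was lost with median ratio scaling (0.0762). CDC42EP2, an effector of CDC42, had 10.7, 12 and 7.09 FPKM at day 0, 64.1 and 58.9 FPKM at day 2, 72.2, 51.7 and 27.2 FPKM at day 6, and 11.2, 27.8 and 25.5 FPKM at day 10. CDC42EP2 rose at day 2 by 2.54 ± 0.56 (limma adjusted p = 0.0152) and at day 6 by 2.16 ± 0.50 (limma adjusted p = 0.0214), and was not called at day 10 (0.98, limma adjusted p = 0.194). Its calls were lost without either day 2 library (0.0911 and 0.0796), without day 0 replicate 3 (0.0540), day 6 replicate 1 (0.123) or day 6 replicate 2 (0.0614), and with median ratio scaling (0.148 at day 2 and 0.328 at day 6).

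The CDKs that act on transcription, CDK7, CDK8, CDK9, CDK12 and CDK13, lay above every day 0 library in all day 6 libraries, where 33.7% of all genes did so. CDK8, part of the Mediator complex, had 2.85, 0.190 and 3.95 FPKM at day 0, 9.38 and 12.2 FPKM at day 2, 12.3, 9.33 and 12.5 FPKM at day 6, and 10.9, 9.02 and 13.9 FPKM at day 10. CDK8 rose at day 6 by 2.12 ± 0.56 (limma adjusted p = 0.0336) and at day 10 by 2.10 ± 0.56 (limma adjusted p = 0.0211), and these calls were lost without any 1 library of the later day (up to 0.142 without day 6 replicate 1 and 0.0750 without day 10 replicate 3), and at day 6 with median ratio scaling (0.0727). CDK9, which releases paused RNA polymerase II, had 105, 78.0 and 76.2 FPKM at day 6 against 43.2, 28.9 and 28.7 FPKM at day 0 and rose by 1.35 ± 0.40 (limma adjusted p = 0.0475). That call was lost without any 1 library other than day 0 replicate 1 (up to 0.193, without day 6 replicate 1) and with median ratio scaling (0.818).

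The kinesins that carry cargo along microtubules ran against the mitotic kinesins between day 10 and day 6. All 12 tested transport kinesins had a negative log2 fold change, with a median of -0.96 beside -0.43 for all tested genes and 1.60 for the mitotic kinesins. With median ratio scaling the median was -0.65 with 1 of 12 positive, and after quantile normalization it was -0.48 with 2 of 12 positive. At day 10, 7 of the 14 transport kinesins lay below every day 6 library, against 24.5% of all genes, and replicate 1 was the lowest of the day 10 libraries in 14 of 14. KIF1C, a carrier of vesicles, had 143, 96.5 and 79.6 FPKM at day 0, 54.0 and 43.3 FPKM at day 2, 75.3, 87.0 and 101 FPKM at day 6, and 18.5, 28.3 and 46.6 FPKM at day 10. It fell at day 10 against day 0 by 1.79 ± 0.44 on the log2 scale (limma adjusted p = 0.0138), a call lost without day 0 replicate 1 (0.0545) or day 10 replicate 1 (0.0581), and it did not pass against day 6 (-1.55, limma adjusted p = 0.0625). KIF1A, a kinesin of nerve cell axons, had 1.77, 6.91 and 2.44 FPKM at day 6 against 0.308, 0.0971 and 0.237 FPKM at day 0. KIF1A rose at day 6 by 1.80 ± 0.51 (limma adjusted p = 0.0428), but it passed the filter only through day 6 and could be called in that direction alone, and that call was lost without any 1 of the 6 libraries (up to 0.117, without day 6 replicate 2) and with median ratio scaling (0.118).

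Genes of the same pathways outside the families were read from lists chosen with earlier results of these data known. Of 20 listed proliferation and S phase genes, 12 were in the table and tested. LIG1, the ligase of the lagging strand, and UHRF1, which keeps DNA methylation through S phase, rose at day 6 (1.74 with limma adjusted p = 0.0470 and 2.27 with limma adjusted p = 0.04995), where 9.55% of all tested genes were called higher, and 0 of 12 passed at day 2 and at day 10. TOP2A, a topoisomerase that untangles chromosomes for mitosis, had the pattern of the B cyclins without a call, with 12.2, 2.51 and 11.8 FPKM at day 10 against 1.94, 1.12 and 2.12 FPKM at day 6. Of 12 listed origin complex, GINS, CDT1 and GMNN genes, 9 were tested and limma called 0 in each comparison.

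Of 33 listed mitosis genes, 24 were in the table and 21 were tested. At day 10 against day 0, 7 of the 21 rose and 0 fell, where 11.9% of all tested genes were called higher. NDC80, HMMR, TTK, FBXO5, ZWINT and CDCA2 reached the filter only through day 10, so neither this count nor the median of the list supports a rise at that day. The 7 were CDCA4, UBE2C, CKS2, RACGAP1, KIFC1, DLGAP5 and NDC80, of which CDCA4 acts in transcription rather than in mitosis itself. UBE2C, which marks cyclin B for breakdown with the anaphase-promoting complex, had 53.9, 11.3 and 25.2 FPKM at day 10, against 4.70, 4.37 and 3.02 FPKM at day 6 and 5.74, 6.10 and 4.81 FPKM at day 0. It rose at day 10 by 2.00 ± 0.61 against day 0 (limma adjusted p = 0.0388) and was the only gene of this list to pass against day 6 (2.39 ± 0.61, limma adjusted p = 0.0413). Before day 10, fewer of all tested genes were called higher, 5.76% at day 2 and 9.55% at day 6. The list had 3 calls at day 2 (CDCA4, CKS2 and CDCA7) and 2 at day 6 (CKS2 and CDCA7), all higher. At day 6 the list, with 2 of its 21 genes called, was close to the share of that day. Its median log2 fold change over the 21 was 1.01 for day 2, 0.42 for day 6 and 1.65 for day 10, each against day 0, beside 0.51, 0.88 and 0.51 for all tested genes.

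Among 9 tested E2F, RB and MYB regulators, 2 rose at day 2 (E2F4 and MYBL2), 3 at day 6 (E2F4, E2F5 and E2F6) and 1 at day 10 (MYBL2), and 0 fell, where 5.76%, 9.55% and 11.9% of all tested genes were called higher. The 1 of 9 at day 10 is close to that share. MYBL2, which turns on genes of mitosis, had 44.5, 18.3 and 50.3 FPKM at day 10, against 14.7, 14.2 and 8.93 FPKM at day 6 and 2.63, 3.67 and 2.05 FPKM at day 0 (3.26 ± 0.59 against day 0, limma adjusted p = 0.00221). Of the CDK inhibitors, 3 of 7 were in the table, and CDKN2A, which blocks CDK4 and CDK6 and is often used as a mark of cells that have stopped dividing, passed. CDKN2A had 0, 0 and 0.181 FPKM at day 0, 5.31 and 2.54 FPKM at day 2, 0.887, 0.238 and 0.920 FPKM at day 6, and 27.7, 43.5 and 22.7 FPKM at day 10. It rose at day 2 by 2.16 ± 0.53 (limma adjusted p = 0.0250) and at day 10 by 4.88 ± 0.47 against day 0 (limma adjusted p = 2.48e-05) and 4.24 ± 0.47 against day 6 (limma adjusted p = 2.54e-04). CDKN2A thus lay above day 6 in every day 10 library, as did CCNB1, CCNB2, KIF20A and KIF22, while PLK1 overlapped. Among the day 10 libraries, replicate 2 was highest in CDKN2A and lowest in the mitotic kinesins. Replicate 1, highest in 9 of 12 mitotic kinesins, nevertheless had more CDKN2A than replicate 3. A link between CDKN2A and the mitosis genes was not tested.

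The cell type markers moved along with the days as well. Against day 0, 6 of 7 heart muscle markers fell at day 2, 3 of 7 at day 6 and 7 of 7 at day 10. Of the fibroblast markers, 1 of 6 rose at day 10 against day 0 (COL1A2) and 3 of 6 against day 6 (COL3A1, COL1A2 and LUM), and their sums were 1737 to 8267 FPKM at day 10, against 302 to 615 FPKM at day 6 and 366 to 1966 FPKM at day 0. FBLN1 and PDGFRA overlapped between day 10 and day 6, and most of the day 10 fibroblast sums was COL3A1. Of the 6 smooth muscle and pericyte markers, TAGLN and ACTA2 rose at day 10 against day 6, where 1.91% of all tested genes were called higher. The sums were 2284 to 3140 FPKM at day 10 against 56.7 to 186 FPKM at day 6 and 177 to 415 FPKM at day 0. Most of the day 10 sums was TAGLN, at 1946, 2395 and 1971 FPKM. CNN1, PDGFRB, CSPG4 and MYH11 overlapped between day 10 and day 6. MYH11 had 0, 1.21 and 0.640 FPKM at day 10 against 2.03, 4.04 and 0.798 FPKM at day 6. Endothelial sums were highest earlier, at 859 to 2075 FPKM at day 6 against 50.8 to 555 FPKM at day 0, with 518 and 2146 FPKM at day 2, and PECAM1 and ERG rose at day 6. PECAM1 made most of each endothelial sum. Day 2 replicate 2, which had the high mitotic genes of its day, also had the higher endothelial sum. Macrophage and monocyte sums were 29.5 to 699 FPKM at day 10 against 223 to 843 FPKM at day 0, and CD3D of the lymphocyte list was at 0 in all day 10 libraries. The part of these markers in the changes of the division genes was not tested.

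**Figure D5:**
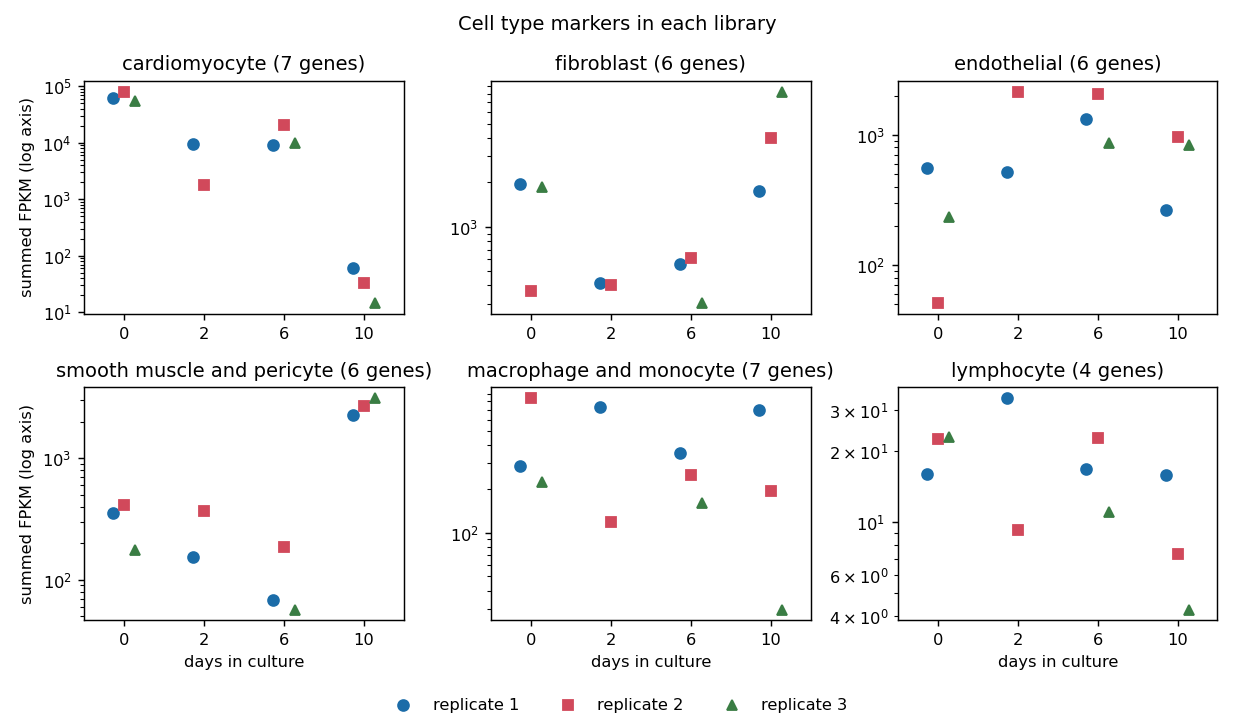
Summed FPKM of the marker lists of 6 cell types in each library on a log axis, by day. Heart muscle markers lie at 14.4 to 61.1 FPKM at day 10 against 56086 to 80981 FPKM at day 0, while smooth muscle and pericyte markers lie at 2284 to 3140 FPKM at day 10 against 177 to 415 FPKM at day 0. Most of the smooth muscle and pericyte sum at day 10 is TAGLN.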

How the data were processed

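Total RNA of heart slices was isolated with Trizol and made into TruSeq libraries, per the labels' protocols. The authors deposited 1 table of FPKM values per gene and library. Bowtie 0.12.2 and the mouse build mm8 are named, with no role, per the submitters' processing notes, although the gene identifiers are those of pig. The sources used here give no counter, annotation release or use of strand. The members, roles, lists and tests were chosen with earlier results of these data known.

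Symbols were taken from a table of gene names. FPKM values are whole multiples of a step, so reads were recovered; 100% of values of 16073 genes came out whole within 0.01. Genes with a mean of at least 1 FPKM were fitted as log2(FPKM + 1) with limma 3.58.1 in R 4.3.3, 1 model with the 4 days as groups (7 residual and 5.89 prior degrees of freedom), with day 2, day 6 and day 10 each set against day 0, day 6 against day 2 and day 10 against day 6, two-sided, with Benjamini-Hochberg adjustment over 12625 genes. The steps were tested on simulated data. The log2 scale understates changes of genes with low FPKM.

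Genes were named from a panel whatever their values, and up to 8 higher and 8 lower members that passed in each comparison. Members outside this rule that are listed where groups do not overlap, and pathway genes such as TOP2A and UBE2C, were named after their values were seen. The main fit did not pair libraries by replicate number. For day 10 and day 6, deviations of same-numbered libraries from their group means correlated at 0.275, 0.250 and 0.180, which does not establish pairing. Gene overlaps come from RefSeq Sscrofa11.1, where 100 of the 106 members matched by symbol. The alternatives were other pseudocounts, filters and scalings, only the compared groups, a replicate block, leaving out libraries and, chosen after seeing the data, limma voom on the recovered reads.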

Additional observations from a re-analysis of the deposited data

How the results depend on the processing

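Of 31 called changes of named members, 0 turned direction under any alternative. Of these 31, 18 were lost with only the compared groups, 14 with limma voom on reads, 13 with median ratio scaling and 9 with a pseudocount of 0.1. The counts of members called moved as follows. Day 2 against day 0 gave 5 calls, and 0 with only the compared groups, 8 with a mean FPKM of at least 5 and 9 with quantile normalization. Without both libraries that stood apart, day 2 held 1 library, and that count is left out. Day 6 against day 0 gave 10, and 6 with a pseudocount of 0.1, 5 with quantile normalization, 3 with limma voom on reads and 2 each with median ratio scaling (1 of them shared) and with only the compared groups. Day 10 against day 0 gave 13, and 7 with limma voom, 8 with only the compared groups and 21 without both libraries that stood apart. Day 10 against day 6 gave 3, and 13 with quantile normalization and with only the compared groups and 17 without both libraries that stood apart. Day 6 against day 2 gave 0 under every alternative. Leaving out 1 library at a time gave 2 to 7, 0 to 12, 4 to 17, 0 to 0 and 2 to 3 calls for day 2, day 6 and day 10 against day 0, day 6 against day 2 and day 10 against day 6. The lowest were without day 2 replicate 2 (2), day 6 replicate 1 (0) and day 10 replicate 1 (4). A lone library at day 2 is taken to have the spread of the other days. With the replicate number as a block, 4, 7, 10, 0 and 2 were called. Same-numbered libraries correlated at -0.552 and -0.463 for day 2 against day 0, -0.105 to 0.469 for day 6, -0.376 to 0.212 for day 10 and -0.110 and 0.293 for day 6 against day 2. Pairing by number was thus not established for those days either. The planned quasi-likelihood test on reads was not run, since the deposited values are FPKM, and limma voom took its place. Except where stated, the cause of a change was not tested. Low genes such as CDC20 and KIF12 rest on few reads.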
